A study of Mus musculus with 6 samples.

Results

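The genes described here are 41 genes that copy DNA or make its building blocks, taken by symbol from a fixed list and found in 41 of the 22958 gene entries measured. They cover origin licensing (5 genes), the replicative helicase (9), the sliding clamp and its loader (6), DNA polymerases and primase (8), the single-strand binding complex (3), deoxynucleotide supply (5), flap processing, ligation and uracil removal (3), and maintenance of DNA methylation (2). RNA was sequenced from endothelial cells of the embryonic mouse brain, sorted on CD31, in 3 control libraries and in 3 with raised Axin1, the scaffold protein on which beta-catenin is marked for degradation. The series asks what overexpression of Axin1 changes in these cells.

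Controls carried the genotype given as Cdhrs5CreERT2:R26Axin1IL-/- and the Axin1 group Cdhrs5CreERT2:R26Axin1IL+/-, both on the strain C57BL/6 x 129/Sv. All embryos were taken at E11.5, and in both groups the mother had received tamoxifen at E9.5, so the controls share the Cre label and the drug. The labels do not say which cells the Cre line marks, nor how many embryos or litters a library holds. Within a group the libraries are labelled as biological replicates, and every p-value below measures only the spread between these 6 libraries. In bulk RNA a smaller share of dividing cells and less RNA per cell cannot be told apart.

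DNA replication starts at origins that ORC, CDC6 and CDT1 load with MCM2-7, a ring made of 6 different subunits that later unwinds the duplex. PCNA is the ring that holds polymerases on the template, and the RFC complex opens and loads it. Most of these genes are transcribed in late G1 and S phase, many of them under E2F factors, so in a growing embryonic vessel bed their RNA marks cells that are preparing for or passing through S phase.

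Library totals ran from 10772492 to 14234409 reads assigned to genes. Axin1 itself was at 25.03, 17.6 and 20.8 CPM (reads scaled to a common library total, normalised by the TMM method) in the controls and 79.8, 62.2 and 66.2 in the Axin1 libraries, in the order of their labels. Of 10 endothelial markers 0 passed the test described below, 1 was higher and 1 lower at an unadjusted p of 0.05, and DESeq2 called 1, Cdh5. Their summed level was 8137 to 8256 CPM in the controls and 7727 to 8970 in the Axin1 libraries. Markers of other cells were present: macrophage and microglia markers summed to 464 to 883 CPM in the controls and 258 to 2719 in the Axin1 libraries, and their 12 members all lay higher on average in the Axin1 group, with 0 past the test. Erythroid markers summed to 736 to 3065 and 261 to 2697 CPM, megakaryocyte and platelet markers to 1308 to 1490 and 564 to 2519 CPM, pericyte and mesenchyme markers to 30.2 to 124 and 50.5 to 122 CPM, and neural markers to 177 to 388 and 251 to 275 CPM. Most of the neural sum was Nes, at 155 to 214 CPM in the controls and 172 to 235 in the Axin1 libraries. Tubb3, the next highest neural marker, was at 14.4, 34.6 and 106 CPM in the controls and 21.5, 50.5 and 55.0 in the Axin1 libraries. Hba-a1, an adult alpha-globin gene with more than 1 entry, was listed at 0 in each entry and library. How reads that match several places were counted is not given, so this does not show that its RNA was absent.

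Of the 41 genes, 2 rose in the Axin1 libraries and 0 fell at an adjusted p of 0.05 (quasi-likelihood test of edgeR, Benjamini-Hochberg adjustment over all tested genes). Those 2 were Mcm6, a subunit of the MCM2-7 helicase, by 2.43-fold, and Dut, the dUTPase that keeps uracil out of DNA, by 2.91-fold. Among all 12661 tested genes 0.845% were called, 0.355% higher and 0.49% lower. The members' median log2 fold change was -0.08, against 0.02 over all tested genes. Of the 41, 27 lay below 0, or 65.9%, against 47.5% of all tested genes and 50.7% of those of 20 to 600 CPM. Within 0.5 of 0 lay 36, or 87.8%, against 78.2% of all tested genes and 87.1% of those of 20 to 600 CPM. The groups did not overlap for 6 of the 41, 3 higher and 3 lower in the Axin1 libraries, against 23.8% of all tested genes, 11.3% higher and 12.4% lower. The wider lists of replication and cell cycle genes held 0 called genes.

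Sequence upstream of the start is shown for 5 of the members: Mcm6, Dut and Rfc5, which hold the 3 largest fold changes, and Mcm5 and Cdc6 as S-phase genes that did not pass the test. Each run has 60 bases, 5′ to 3′ on the gene's own strand, from RefSeq on GRCm38.p6. For Mcm6, Mcm5 and Cdc6 the run was placed around the E2F-type match nearest the start, and for Dut and Rfc5, which have no match, it is the 60 bases directly before the start. The capitals mark E2F-type letters (TTTCCCGC, TTTGGCGC, TTTCGCGC or TTTGCCGC on either strand; overlapping matches are shown as 1 run).
Mcm6, chr1:128359719-128359778, minus strand: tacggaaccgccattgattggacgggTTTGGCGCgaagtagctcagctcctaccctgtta
Mcm5, chr8:75109334-75109393, plus strand: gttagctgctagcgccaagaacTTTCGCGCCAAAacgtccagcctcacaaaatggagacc
Cdc6, chr11:98907987-98908046, plus strand: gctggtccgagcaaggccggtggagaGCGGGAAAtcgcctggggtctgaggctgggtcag
Dut, chr2:125247455-125247514, plus strand: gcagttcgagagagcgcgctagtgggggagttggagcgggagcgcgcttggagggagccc
Rfc5, chr5:117389024-117389083, minus strand: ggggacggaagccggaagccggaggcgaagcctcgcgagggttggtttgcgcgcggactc

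A promoter window of 300 bases, 250 before and 50 after the start, was matched for 34 of the 41 members. Such letters stood in the window of 13 of these 34 genes (38.2%), against 575 of 17491 protein-coding genes (3.29%). Mcm6 had 3 matches, the nearest 39 bases before the start. The nearest match lay 141 bases before the start in Mcm5 and 130 in Cdc6. The windows of Dut and Rfc5 held 0 of these letters. The letters CCAAT, which the factor NF-Y binds, were searched on both strands and stood in 21 of the 34 members (61.8%) and in 42.3% of protein-coding genes, and Mcm6 and Mcm5 had them while Cdc6, Dut and Rfc5 did not. A match describes the letters and is not a measured binding site. Of the 2 genes that rose, Mcm6 thus had E2F-type letters in its window and Dut had none.

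**Figure D1:**
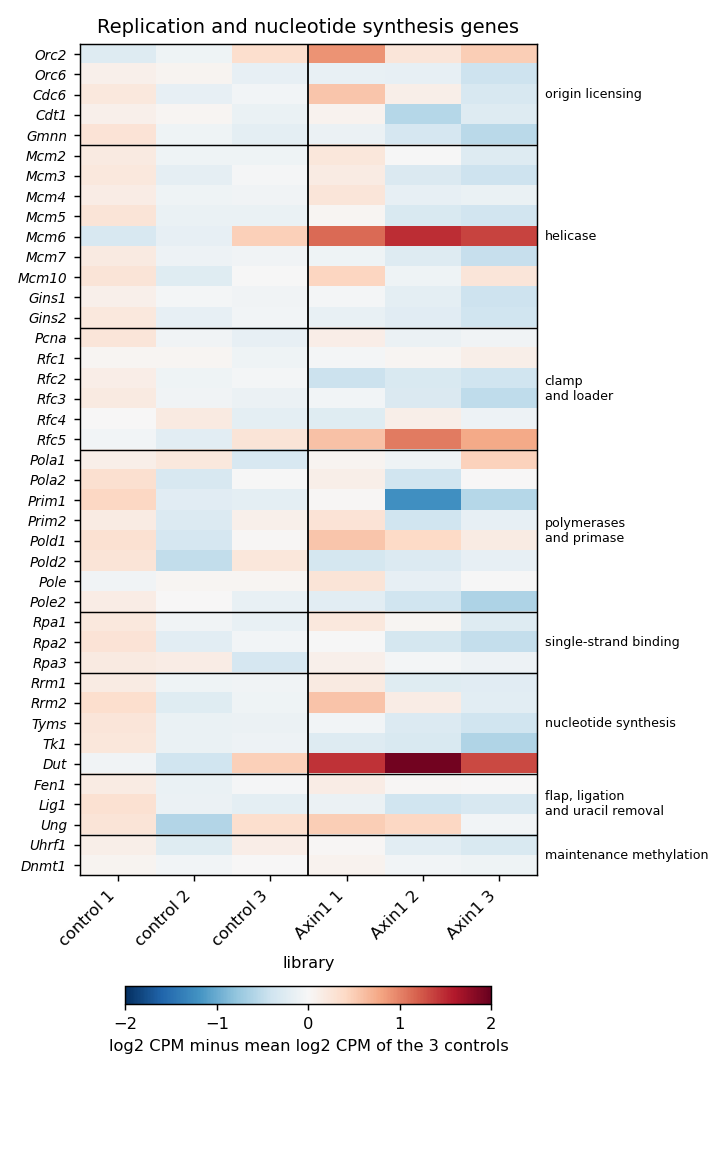
The 41 genes by role (rows) in the 6 libraries (columns); colour gives log2 CPM minus the mean log2 CPM of the 3 controls. Mcm6, Dut and Rfc5 lie above the control mean in all 3 Axin1 libraries, while control 1 and Axin1 library 1 are the warmer column of their group for most other rows.

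The origin licensing genes held 0 calls among 5, with a median log2 fold change of -0.23. Orc2, a subunit of the origin recognition complex, had the smallest p of the group, with 23.3, 26.2 and 34.9 CPM in the controls and 51.8, 32.7 and 39.2 in the Axin1 libraries. Control 3 lay above Axin1 library 2, so the groups overlapped, and the log2 fold change was 0.55 (SE 0.22, edgeR adjusted p 0.246). The exons of Orc2 share bases with Nif3l1 on the opposite strand, and its count is uncertain for that reason, since the strand setting of the counting is not given in the sources used here.

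Gmnn encodes geminin, the inhibitor that binds CDT1 and prevents a second licensing in the same cycle. It had the highest level per length of the 5, at 96.5 ± 15.3 RPKM (reads scaled by gene length and library size, as deposited) in the controls and 77.5 ± 11.53 in the Axin1 libraries (SD, n = 3 each). Its libraries held 114, 88.7 and 82.1 CPM against 87.2, 74.2 and 64.6. The groups overlapped, with a log2 fold change of -0.34 (SE 0.16, edgeR adjusted p 0.344). Its target Cdt1 went from 19.8 ± 1.59 to 16.9 ± 3.71 CPM, Orc6 from 124 ± 11.98 to 105 ± 10.5 CPM, and the loading ATPase gene Cdc6 from 91.0 ± 12.7 to 101 ± 30.5 CPM, with edgeR adjusted p of 0.381 to 0.764.

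The helicase group held 1 call among 9 genes. Mcm6 was at 108, 119.6 and 187 CPM in the controls and 293, 373 and 341 in the Axin1 libraries. The lowest Axin1 library lay well above the highest control, control 3, and the groups did not overlap. The mean went from 138 ± 42.6 to 336 ± 40.2 CPM (SD, n = 3 each), a log2 fold change of 1.28 (SE 0.21, 95% confidence interval 0.79 to 1.78, edgeR adjusted p 0.0491). The adjusted p sits just under the threshold. Leaving out control 1 or control 2 gave 0.154 or 0.21, leaving out Axin1 library 1, 2 or 3 gave 0.0681, 0.159 or 0.131, and leaving out control 3 gave 0.000932. The log2 fold change stayed between 1.13 and 1.55 in these 6 fits. DESeq2 gave a log2 fold change of 1.27 and an adjusted p of 6.24e-07, and limma on log2(RPKM + 1) gave 1.31 and 0.0546. Mcm6 has no exon overlap on the opposite strand and no processed pseudogene copy in the annotation searched.

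The other 5 subunits of the ring gave no call. Mcm3 had the highest level of the group, at 652, 498 and 556 CPM in the controls and 637, 464 and 424 in the Axin1 libraries. Its groups overlapped, with a log2 fold change of -0.16 (SE 0.17, edgeR adjusted p 0.677). Mcm2 and Mcm4 had log2 fold changes of -0.0062 and -0.0081, with 95% confidence intervals of -0.34 to 0.33 and -0.32 to 0.30. Mcm5 lay at -0.22 (interval -0.57 to 0.13) and Mcm7 at -0.27 (interval -0.56 to 0.03). Mcm7 has a processed pseudogene copy and exons shared with Ap4m1 and Cops6 on the opposite strand, so its count is uncertain.

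Since the ring takes 1 copy of each subunit, the levels were also compared within a library, per length. Mcm6 was at 36.0, 41.1 and 64.7 RPKM in the controls and 100.4, 131 and 117 in the Axin1 libraries. Mcm3 was the highest subunit in all 6 libraries, between 145 and 218 RPKM. Mcm6 was the lowest subunit in controls 1 and 2, and Mcm2 was the lowest in the other 4 libraries. The ratio of the highest to the lowest subunit was 6.06, 4.16 and 3.04 in the controls and 2.78, 2.41 and 2.62 in the Axin1 libraries. Without Mcm6 the same ratio was 2.97, 2.72 and 3.04 in the controls and 2.78, 2.41 and 2.62 in the Axin1 libraries.

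On the log2(RPKM + 1) scale Mcm6 minus the mean of Mcm2, Mcm3, Mcm4, Mcm5 and Mcm7 was -1.90, -1.44 and -0.86 in the controls and -0.40, 0.26 and 0.26 in the Axin1 libraries. In the controls Mcm6 thus lay below the average of its partners in every library, and in Axin1 libraries 2 and 3 slightly above it. The mean difference moved from -1.40 ± 0.52 to 0.04 ± 0.38 (SD, n = 3 each), by 1.44. No test is given for this difference, since Mcm6 was singled out by its own fold change in the same libraries.

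**Figure D2:**
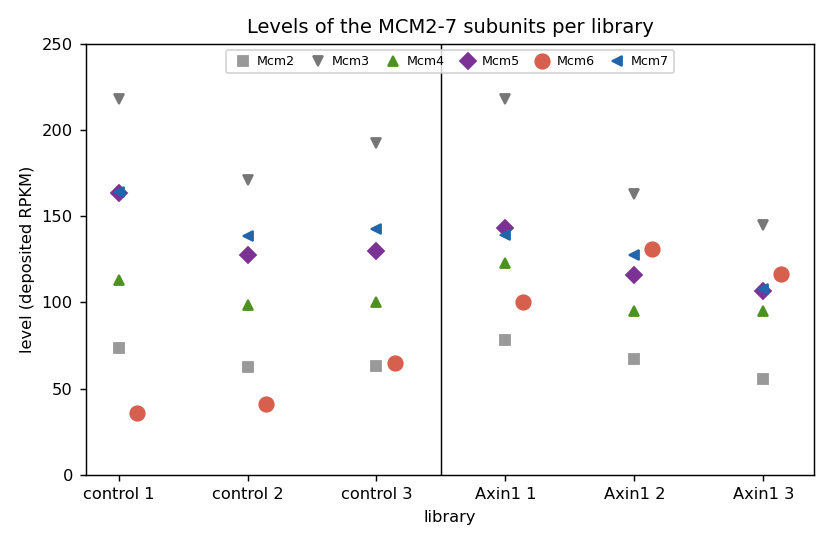
Deposited RPKM of the 6 MCM2-7 subunits (points) in each library (horizontal axis). Mcm6 lies under Mcm2 in controls 1 and 2, close to Mcm2 in control 3, between Mcm2 and Mcm4 in Axin1 library 1, and next below Mcm3 in Axin1 libraries 2 and 3.

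The helicase partners outside the ring gave no call either. Mcm10, an initiation factor that joins the helicase, went from 45.2 ± 7.73 to 51.7 ± 8.91 CPM. The GINS subunit genes Gins1 and Gins2 went from 33.3 ± 2.23 to 28.8 ± 3.66 CPM and from 86.9 ± 11.9 to 72.3 ± 6.18 CPM. Their log2 fold changes were 0.19, -0.21 and -0.27, with edgeR adjusted p of 0.635, 0.533 and 0.368. In the annotation searched, 2758 of the 3900 exon bases of Gins2 lie opposite Gse1. The length implied by reads over RPKM is only 927 to 930 bases. Whether the overlap lies within the counted bases was not tested, so that count is uncertain.

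In the clamp and its loader 0 of 6 genes passed. The groups did not overlap for 2 of the 5 loader subunits, in opposite directions, and for 23.8% of all tested genes. Rfc5, a small subunit of the RFC clamp loader, was at 13.7, 12.3 and 16.9 CPM in the controls and 21.3, 29.1 and 24.0 in the Axin1 libraries. All 3 Axin1 libraries lay above all 3 controls. The log2 fold change was 0.80 (SE 0.20, 95% confidence interval 0.34 to 1.25), and it did not pass (edgeR adjusted p 0.107). DESeq2 called it, at an adjusted p of 0.0293, and limma on log2(RPKM + 1) gave 0.0957. Without control 3 edgeR's adjusted p was 0.0426, and in the other 5 fits that left out 1 library it was 0.113 to 0.320.

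Rfc2, another small subunit of the loader, was at 231, 197 and 203 CPM in the controls and 156, 169.6 and 159.8 in the Axin1 libraries. Every Axin1 library lay below every control. The mean went from 210.1 ± 18.1 to 162 ± 6.95 CPM (SD, n = 3 each), a log2 fold change of -0.38 (SE 0.11, 95% confidence interval -0.62 to -0.13), which did not pass (edgeR adjusted p 0.136).

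Within the loader Rfc5 was the lowest and Rfc2 the highest subunit per length in every library. The ratio of Rfc2 to Rfc5 in RPKM was 16.7, 15.9 and 11.9 in the controls and 7.27, 5.78 and 6.59 in the Axin1 libraries. These ratios did not overlap between the groups, which follows from the 2 genes' own groups lying apart in opposite directions. Both counts carry a doubt. Exons of Rfc5 overlap Wsb2 on the opposite strand and it has a processed pseudogene copy of 96.2% identity, and exons of Rfc2 overlap Lat2. These annotated exons hold 3237 bases for Rfc5 and 4995 for Rfc2. Reads over RPKM imply lengths of up to 1519 and 1534 bases. Whether the overlaps lie within the counted bases was not tested. Wsb2 had a log2 fold change of 0.07 and Lat2 of 0.70, from 3.95 to 6.44 CPM on average, and neither passed the test (edgeR adjusted p 0.867 and 0.426).

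The clamp gene itself differed little. Pcna was at 172, 138 and 129.98 CPM in the controls and 160.3, 135 and 138 in the Axin1 libraries, with overlapping groups. The log2 fold change was -0.02 (95% confidence interval -0.34 to 0.29, edgeR adjusted p 0.955). At 209.7 RPKM in the controls it was the member with the second highest level per length, and it has a processed pseudogene copy of 99.2% identity that could take or add reads. Rfc1, the large subunit of the loader, had 136 ± 6.53 CPM in the controls and 140.2 ± 8.08 in the Axin1 libraries. Rfc3 had 71.7 ± 7.77 and 59.2 ± 9.09 CPM, and Rfc4 had 74.4 ± 9.35 and 70.6 ± 8.95 CPM, with edgeR adjusted p of 0.394 and 0.838.

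**Figure D3:**
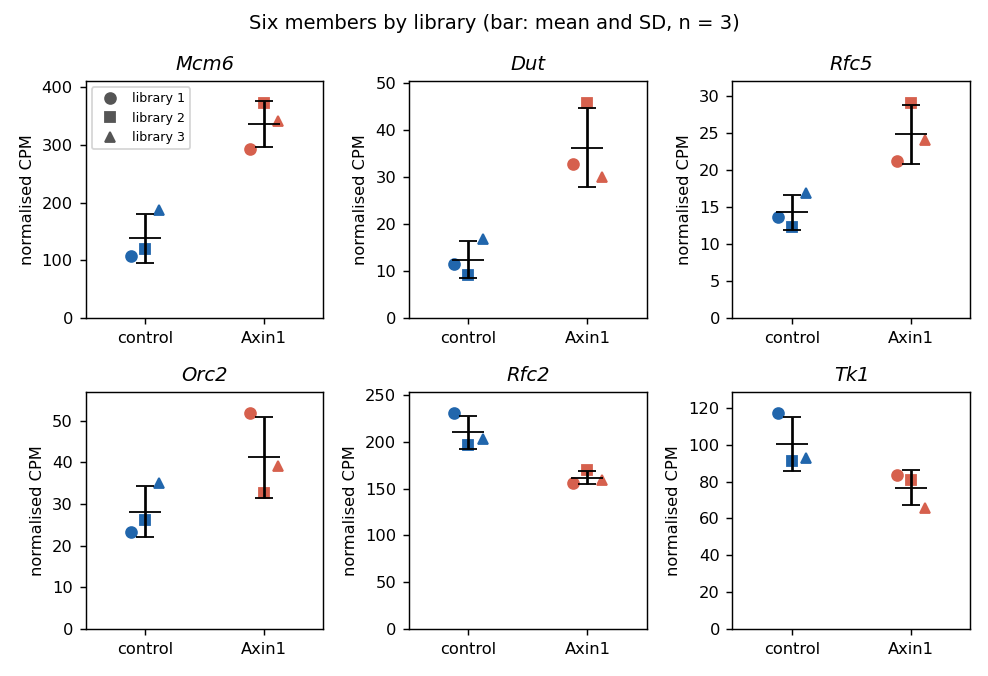
Normalised CPM of 6 genes in each library (points; shape marks the library number), with the mean and SD of each group of 3 (bars). Mcm6, Dut and Rfc5 lie higher and Rfc2 and Tk1 lower in all 3 Axin1 libraries than in any control, and the groups of Orc2 overlap; only Mcm6 and Dut passed edgeR's test at an adjusted p of 0.05.

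The polymerase and primase genes gave 0 calls among 8, with a median log2 fold change of -0.09. Pole2, the second subunit of the leading-strand polymerase epsilon, was at 34.3, 31.1 and 27.9 CPM in the controls and 26.9, 23.4 and 20.2 in the Axin1 libraries. The groups touched without overlapping, 27.9 against 26.9 CPM, and the log2 fold change was -0.40 (SE 0.17, 95% confidence interval -0.79 to -0.02, edgeR adjusted p 0.267). Pole2 shares 245 exon bases (14.4%) with Gm49384, a gene annotated on the same strand, so its count is uncertain. Pold2, the accessory subunit of the lagging-strand polymerase delta, was at 74.99, 44.6 and 73.7 CPM in the controls and 49.1, 51.8 and 55.9 in the Axin1 libraries. Control 2 lay below all 3 Axin1 libraries, and the log2 fold change was -0.30 (SE 0.20, edgeR adjusted p 0.488). Pold2 and Prim1 had the highest levels per length of the group, both at 40.5 RPKM in the controls.

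Prim1, the catalytic subunit of primase, had the largest SE of the 41. It was at 82.5, 53.1 and 54.1 CPM in the controls and 62.8, 26.5 and 41.8 in the Axin1 libraries. Axin1 library 1 lay above controls 2 and 3, and the log2 fold change of -0.53, the lowest of the 41, had an SE of 0.33 with an edgeR adjusted p of 0.463. Its partner Prim2 went from 70.2 ± 11.1 to 66.4 ± 15.9 CPM. The catalytic subunit genes Pola1, Pold1 and Pole lay at log2 fold changes of 0.15, 0.36 and 0.03, and Pola2 at -0.09, with edgeR adjusted p of 0.744, 0.344, 0.934 and 0.865.

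Of the 3 subunits of replication protein A, which coats single-stranded DNA, 0 passed. Rpa1, the large subunit, was at 354, 289 and 275 CPM in the controls and 352, 313 and 254 in the Axin1 libraries. The means were the same to 3 digits, at 306 CPM, and the 95% confidence interval of the log2 fold change ran from -0.34 to 0.34. Rpa2 was at 144, 102 and 114 CPM against 118, 93.4 and 85.8. The groups overlapped, with a log2 fold change of -0.28 (SE 0.17, edgeR adjusted p 0.443). Rpa3 lay at -0.03 (edgeR adjusted p 0.96).

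Among the genes of deoxynucleotide supply 1 of 5 rose. Dut was at 11.46, 9.13 and 16.8 CPM in the controls and 32.8, 45.9 and 30.1 in the Axin1 libraries. Every Axin1 library lay above every control, with control 3 the highest of its group. The mean went from 12.5 ± 3.95 to 36.3 ± 8.43 CPM (SD, n = 3 each), a log2 fold change of 1.54 (SE 0.26, 95% confidence interval 0.94 to 2.15, edgeR adjusted p 0.044). These levels rest on 119 to 183 reads in the controls and 348 to 666 in the Axin1 libraries. Per length Dut was the second lowest of the 41 genes in the controls, at 5.85 ± 1.92 RPKM, and stood at 15.4 ± 3.81 RPKM in the Axin1 libraries.

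The call on Dut also depended on single libraries. Leaving out control 1 or control 2 raised the edgeR adjusted p to 0.18 or 0.208. Leaving out Axin1 library 1, 2 or 3 raised it to 0.077, 0.158 or 0.0855, and leaving out control 3 gave 0.00525. The log2 fold change stayed between 1.33 and 1.80. DESeq2 gave 1.53 and an adjusted p of 9.02e-06, and limma on log2(RPKM + 1) gave 1.27 and 0.0614. The length implied by reads over RPKM differed by up to 1.11 times between libraries for Dut, whose entry joins several transcripts. It split by group, shorter in all 3 controls (down to 2125 bases) and longer in all 3 Axin1 libraries (up to 2367 bases). The RPKM values of Dut carry this difference. Its CPM values are not divided by a length, but whether its read counts depend on the transcripts used was not tested. Members with 1 listed transcript differed by up to 1.005 times. Orc2 had the largest such ratio, 1.17, with the longer lengths in all 3 controls.

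Tk1, the salvage enzyme thymidine kinase of dividing cells, was at 117, 91.0 and 92.8 CPM in the controls and 83.4, 80.8 and 65.9 in the Axin1 libraries. The Axin1 libraries all lay lower. The mean went from 100.3 ± 14.6 to 76.7 ± 9.46 CPM, a log2 fold change of -0.39 (SE 0.15, 95% confidence interval -0.72 to -0.05) that did not pass (edgeR adjusted p 0.233). Rrm2, the cell-cycle-limited subunit of ribonucleotide reductase, had the highest level per length of all 41 genes, at 231 ± 44.7 RPKM in the controls and 266 ± 70.2 in the Axin1 libraries. Its libraries held 589.5, 397 and 441 CPM against 694, 522 and 407, with overlapping groups and a log2 fold change of 0.18 (SE 0.22, edgeR adjusted p 0.723). The other reductase subunit gene, Rrm1, had 448 ± 43.3 and 422 ± 72.8 CPM. The thymidylate synthase gene Tyms had 232 ± 35.8 and 196 ± 23.4 CPM (edgeR adjusted p 0.412).

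Dut and Ung act on uracil from opposite ends, Dut by removing dUTP before it is built in and Ung, uracil-DNA glycosylase, by cutting it out. Ung had the lowest level of the 41, with 45 to 100 reads in a library. It was at 6.21, 3.45 and 6.53 CPM in the controls and 7.27, 6.89 and 5.01 in the Axin1 libraries. The groups overlapped, and the 95% confidence interval of the log2 fold change ran from -0.50 to 0.99, which includes a rise of close to 2-fold.

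Lig1, the ligase that joins Okazaki fragments, was at 265, 198 and 187 CPM in the controls and 198, 162 and 171 in the Axin1 libraries. Axin1 library 1 matched control 2, and the log2 fold change was -0.30 (SE 0.15, edgeR adjusted p 0.372). Fen1, the nuclease that trims Okazaki fragment flaps, was at 246, 201 and 216 CPM against 244, 223 and 220.4. The groups overlapped, with a log2 fold change of 0.05 (SE 0.11, edgeR adjusted p 0.852). Most exon bases of Fen1 lie opposite an annotated antisense gene.

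Maintenance methylation, which copies the methyl marks to the new strand, held 0 calls among 2 genes. Uhrf1, the factor that recruits the methyltransferase to hemimethylated DNA, was at 390.4, 304 and 394 CPM in the controls and 364, 312 and 293 in the Axin1 libraries. The groups overlapped, with a log2 fold change of -0.17 (SE 0.14, edgeR adjusted p 0.584). Dnmt1, the methyltransferase itself, had the smallest SE of all 41, with 434 ± 16.0 CPM in the controls and 428 ± 26.04 in the Axin1 libraries. Its log2 fold change of -0.02 (SE 0.10) had a 95% confidence interval of -0.24 to 0.20.

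**Figure D4:**
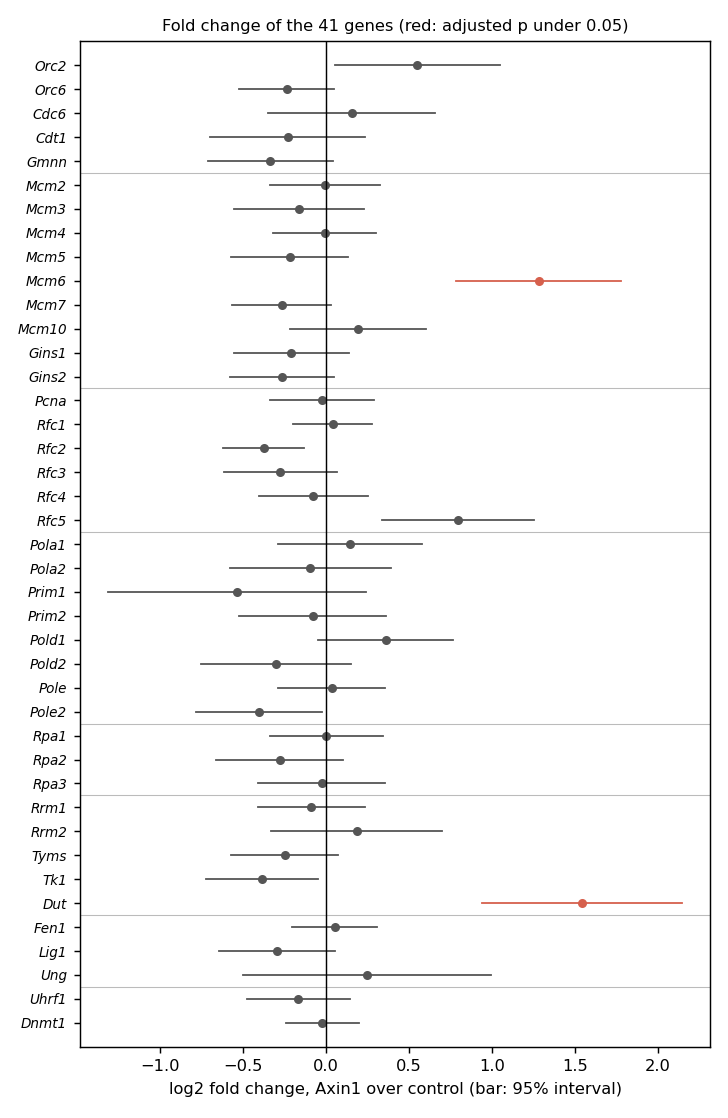
Log2 fold change of each of the 41 genes (points), Axin1 over control, with its 95% confidence interval (bars), ordered by role. Mcm6 at 1.28 and Dut at 1.54 (red) passed edgeR's test at an adjusted p of 0.05, and 36 of the 41 points (87.8%, against 78.2% of all tested genes) lie within 0.5 of 0.

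Leaving aside Mcm6 and Dut, the log2 fold changes of the other 39 genes ran from -0.53 to 0.80, with a median of -0.09 and SEs of 0.10 to 0.33. Their edgeR adjusted p ran from 0.107 to 0.998. For 36 of the 39 the 95% confidence interval held neither a doubling nor a halving, and for 34 it held 0. At an unadjusted p of 0.05 there were 4 members higher (Dut, Mcm6, Rfc5 and Orc2) and 3 lower (Rfc2, Tk1 and Pole2), while 17.2% of all tested genes passed that mark, 9.06% higher and 8.14% lower. The median coefficient of variation between replicates was 14.5% in the controls and 15.1% in the Axin1 libraries, against 15.2% and 14.95% over all tested genes. It was 11.6% and 10.96% over the 6866 tested genes of 20 to 600 CPM, a range of levels closer to that of the members, and thus lower than in the members. Processed pseudogene copies of Rpa3, Rrm2, Tyms and Uhrf1, and opposite-strand exon overlaps of Orc6, Rfc4, Pole, Tk1 and Lig1, make the counts of these genes uncertain. DESeq2 called 3 members, all higher (Dut, Mcm6 and Rfc5), with 5.45% of its genes called, and limma on log2(RPKM + 1) called 0 members.

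Most members shared the same highest library within each group, though not the full order of libraries. Control 1 was the highest control for 32 of the 41 members, against 32.3% of all tested genes. Axin1 library 1 was the highest of its group for 33, against 37.7% of all tested genes. Both held for 29 members, or 70.7%, among them Mcm2, Mcm3, Mcm4, Mcm5, Mcm7, Pcna, Rrm1 and Rrm2, and for 15.9% of all tested genes. Control 1 and Axin1 library 1 share a number in their titles, 1813, and the labels do not say what it marks. Whether the shared number bears on this pattern was not tested. The median of the members' deviation from their own mean over 6 libraries, in log2(CPM + 1), was 0.21, -0.04 and -0.02 in the controls and 0.14, -0.12 and -0.17 in the Axin1 libraries.

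The 30 G2/M genes also had control 1 and Axin1 library 1 highest, though with control 2 above control 3, at median deviations of 0.20, 0.02 and -0.04 in the controls and 0.14, -0.12 and -0.16 in the Axin1 libraries. Axin1 library 1 also had the lowest summed levels of the blood markers, at 258 CPM for macrophage and microglia, 261 CPM for erythroid and 564 CPM for megakaryocyte and platelet markers. Axin1 library 3, the lowest of its group for 23 members, had 2719, 2697 and 2519 CPM of the same lists. Control 1 had 508, 736 and 1340 CPM, where control 2 had 883, 1877 and 1308 and control 3 had 464, 3065 and 1490. The part of these cells in the members' levels was not tested. The members' median log2 fold change was -0.0024 when control 1 was left out, -0.21 when Axin1 library 1 was and -0.12 when both were, and 0 members were called in each of these fits, with 10, 33 and 18 genes called in all.

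**Figure D5:**
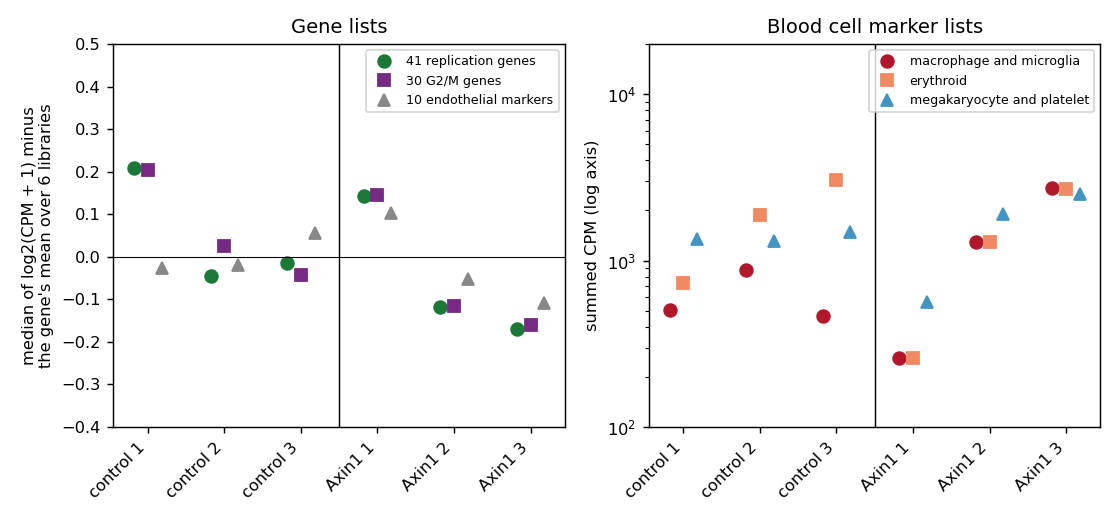
Left, median deviation of 3 gene lists from each gene's mean over the 6 libraries, in log2(CPM + 1); right, summed CPM of 3 blood marker lists on a log axis, both by library. The replication genes (0.21 in control 1, -0.17 in Axin1 library 3) and the G2/M genes (0.20 and -0.16) have nearly the same order over the libraries, and Axin1 library 1 has the lowest summed level of each blood list.

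Further genes of the same processes were taken from lists that hold no member of the 41. Of 38 other replication genes tested 0 passed, with a median log2 fold change of 0.08, and 4 were higher and 2 lower at an unadjusted p of 0.05. The smallest p were those of Top1, the topoisomerase that relaxes supercoils ahead of the fork, from 150.4 ± 29.7 to 221 ± 9.97 CPM (a log2 change of 0.55 and an edgeR adjusted p of 0.117), and Atad5, which unloads PCNA, from 27.1 ± 4.71 to 40.99 ± 7.11 CPM (a log2 change of 0.59 and an edgeR adjusted p of 0.165). Of 34 other nucleotide synthesis genes 0 passed, with a median of -0.0042, and 3 were higher and 2 lower at an unadjusted p of 0.05. Ctps, a CTP synthase, went from 67.3 ± 18.03 to 104.8 ± 4.34 CPM (a log2 change of 0.64 and an edgeR adjusted p of 0.134), and Nme2, a nucleoside diphosphate kinase, from 415 ± 35.0 to 323 ± 18.3 CPM (a log2 change of -0.36 and an edgeR adjusted p of 0.144).

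Of 32 regulators of the G1/S step 0 passed, with a median of 0.06, and 4 were higher and 2 lower at an unadjusted p of 0.05. Rbl2, the pocket protein p130 that represses E2F target genes, came closest, from 7.44 ± 1.52 to 17.0 ± 1.30 CPM (log2 1.20, SE 0.22, edgeR adjusted p 0.0507). It passed when no filter on low counts was used (edgeR adjusted p 0.0337) and under a stricter one (0.045). Ccnd3, cyclin D3, went from 56.4 ± 8.27 to 83.8 ± 7.12 CPM (a log2 change of 0.57 and an edgeR adjusted p of 0.106).

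Of 30 G2/M genes 0 passed, with a median of -0.15. Below 0 lay 24, or 80%, against 47.5% of all tested genes and 50.7% of those of 20 to 600 CPM. As given above, the median deviations of these genes had nearly the same order over the libraries as those of the members. At an unadjusted p of 0.05, 0 were higher and 2 lower: the phosphatase gene Cdc25b, from 47.5 ± 11.1 to 33.8 ± 2.88 CPM (a log2 change of -0.49 and an edgeR adjusted p of 0.222), and the cyclin F gene Ccnf, from 212 ± 22.5 to 155 ± 34.3 CPM (a log2 change of -0.45 and an edgeR adjusted p of 0.234). Of 18 genes of base excision repair and DNA methylation 0 passed, with a median of 0.06, and 1 was higher and 1 lower at an unadjusted p of 0.05. These were Tet3, which oxidises methylcytosine (log2 0.29, edgeR adjusted p 0.245), and the de novo methyltransferase gene Dnmt3b, at 54.1 ± 3.39 CPM in the controls and 39.5 ± 6.31 in the Axin1 libraries (log2 -0.46, edgeR adjusted p 0.177). Across these 5 lists DESeq2 called 5 genes, all higher (Top1, Ctps, Rbl2, Ccnd3 and the transcription factor gene Myc), and limma on log2(RPKM + 1) called 0.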

How the data were processed

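Polyadenylated RNA of 6 libraries (3 control, 3 Axin1) was sequenced after ultra-low-input cDNA synthesis, per the labels' protocols. The authors deposited whole-number read counts and RPKM values per RefSeq gene entry, per the file headers. Bowtie and mm9 are named per the submitters' processing notes; for the counting program, its strand setting and reads that match several places, the sources used here give nothing. Groups came from the sample descriptions. Library totals ran from 10772492 to 14234409 reads.

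The counts were tested with edgeR 4.0.16 (R 4.3.3) over all 12661 genes left by filterByExpr (minimum count 10, minimum total 15), with TMM factors, the robust quasi-likelihood test and Benjamini-Hochberg adjustment at 0.05. The SE is the log2 fold change divided by the square root of F, and intervals are at 95%. Alternatives were DESeq2 1.42.0, limma 3.58.1 on log2(RPKM + 1 or 0.1), RLE factors, other filters (none, or a mean of at least 5 CPM), no robust option, a replicate block and leaving out libraries. The model was tested on simulated counts, where most changes of 2-fold or less were missed and false calls exceeded a share of 0.05. Chi-square per degree of freedom between libraries of a group was 15.9 to 46.5, so none was counted as a repeat of another.

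The members and lists were chosen with earlier results of these data known. Values in every library are given for members past the threshold in edgeR or an alternative with all 6 libraries, and for the smallest p and the highest RPKM of each role; Rfc2, Tk1, Prim1 and Ung were added after their values were seen. Of the other lists, the genes with the 2 smallest p are named, and Myc by its DESeq2 call. Ticrr, Paf and Ahsp were not found under these symbols. Pseudogene copies (minimap2 2.31, at least 200 bases and 90% identity, 7 members) and opposite-strand exon overlaps (11 members) were searched in the GENCODE M21 annotation, a later build than mm9, and 25 members, Mcm6 and Dut among them, had neither. Same-strand exon overlaps, seen for Pole2 and Rpa1, are not part of these counts. Whether an overlap lies within the bases that the authors counted was not tested. Promoter letters came from RefSeq on GRCm38.p6.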

Additional observations from a re-analysis of the deposited data

How the results depend on the processing

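The 2 calls among the members did not hold in every alternative. Members called numbered 0 without edgeR's robust option, 0 in limma on log2(RPKM + 1), 0 in limma on log2(RPKM + 0.1), 0 with control 1 and Axin1 library 1 both left out (chosen after seeing the data) and 0 to 3 when 1 library was left out. The log2 fold change of Mcm6 was then 1.28 (edgeR adjusted p 0.0532), 1.31 (limma 0.0546), 1.33 (limma 0.057), 1.22 (edgeR 0.157) and 1.13 to 1.55. That of Dut was 1.54 (edgeR adjusted p 0.0596), 1.27 (limma 0.0614), 1.40 (limma 0.065), 1.55 (edgeR 0.23) and 1.33 to 1.80. All genes called, 107 in the report, numbered 655 in DESeq2, 197 with no filter, 51 without the robust option, 18 with both libraries left out and 0 to 695 when 1 was left out; at 0, without control 2 or Axin1 library 2, 1539 and 1733 genes had an unadjusted edgeR p under 0.05. The other lists, with 0 called, gave 5 in DESeq2, 1 with no filter, 1 with the stricter filter (Rbl2 in both) and 0 to 9 when 1 library was left out.

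Titles share a number for 2 of the 3 pairs: control 1 with Axin1 library 1, and control 2 with Axin1 library 2. Deviations from group means correlated at 0.23 and 0.15 over genes in those pairs. With the partners exchanged they correlated at -0.22 (control 1, Axin1 library 2) and -0.25 (control 2, Axin1 library 1). Control 3 and Axin1 library 3 share no number, so their -0.02 is no check of pairing by number. Control 2 and Axin1 library 3, which share none either, correlated at 0.17. Only 4 libraries share a number, so the main test was unpaired and takes no account of anything shared within those pairs. The labels do not say what the number marks, and whether it stands for a shared litter or batch was not tested. With that number as a replicate block in the 4 libraries, 1500 genes (11.9%), 5 members (Dut, Mcm6, Orc2 and Rfc5 higher, Prim1 lower, at -0.70 with an edgeR adjusted p of 0.0134) and 19 genes of the other lists were called, against 512 genes and 6 of the other lists in the same 4 without the block. With the replicate number of the descriptions as a block over all 6 (chosen after seeing the data), 1 member (Mcm6) and 1 other list gene (Myc) were called, and Dut lay at 1.56 (edgeR adjusted p 0.0815).

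The sign of the log2 fold change turned only for members that no setting called. With the block and without it in the 4 libraries these were Dnmt1 (0.0077, 0.0079), Mcm2 (0.062, 0.060), Mcm4 (0.0022, 0.010), Pola1 (-0.18, -0.18) and Rfc1 (-0.047, -0.047), and Prim2 without it (0.0054). With both libraries left out they were Pcna (0.024), Pole (-0.12), Rfc4 (0.0055) and Rpa3 (0.0023). In limma (pseudocount 1, 0.1) they were Mcm2 (0.00034, 0.00020) and Rpa3 (0.0065, 0.0067). Rpa1 turned to -0.013 in DESeq2, -0.0070 with RLE factors, -0.0053 with no filter and -0.0022 with the block over 6. When 1 library was left out the values ran from -0.090 to 0.35 for Cdc6, -0.075 to 0.0098 for Dnmt1, -0.012 to 0.13 for Fen1, -0.14 to 0.11 for Mcm2, -0.15 to 0.069 for Mcm4, -0.12 to 0.10 for Pcna, -0.030 to 0.26 for Pola1, -0.24 to 0.079 for Pola2, -0.091 to 0.12 for Pole, -0.29 to 0.057 for Prim2, -0.013 to 0.077 for Rfc1, -0.18 to 0.015 for Rfc4, -0.11 to 0.12 for Rpa1, -0.19 to 0.061 for Rpa3 and -0.037 to 0.36 for Rrm2. The cause of these changes was not tested. Over all results and alternatives 665 values kept their direction and side of the threshold, or for a count stayed within 1.5 times, while 30 counts moved further, 54 values turned sign, 19 no longer passed and 5 newly passed. Ung had the fewest reads, 45 to 100 in a library.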

Other observations

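Mcm6, Dut and Rfc5, the 3 members with the largest fold changes, shared the highest library of each group, and it differed from that of most of the list. Below the highest library their orders were not all the same. This pattern was chosen after their values were seen. Control 3 was the highest control and Axin1 library 2 the highest Axin1 library for each of the 3, and for no other member. This is 7.32% of the 41, against 11.2% of all tested genes. Mcm6 was at 187 CPM in control 3, where Mcm2 was at 214, and at 108 CPM in control 1, where Mcm2 was at 257. Control 1 and Axin1 library 1, the highest of their groups for 29 members, were the lowest or the middle library of theirs for Mcm6, Dut and Rfc5. Rnaseh2c, a subunit gene of the RNase H2 that removes ribonucleotides from DNA and no member of the 41, was at 5.16 and 5.44 CPM in controls 1 and 2 but at 39.99 CPM in control 3, and at 28.3, 36.2 and 30.3 CPM in the Axin1 libraries. With all 6 libraries its log2 fold change was 0.91 (SE 0.86, edgeR adjusted p 0.652), and with control 3 left out it was 2.56 (edgeR adjusted p 0.000721); it was chosen after its values were seen.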
